A study of Mus musculus with 2 samples.

Results

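The sites described here are open chromatin regions inside the introns of very long genes of the embryonic mouse hindbrain. A member is a 150 bp DNase-seq peak of replicate 1 that overlapped a replicate 2 peak by at least 1 bp. Its midpoint lay in an intron of a protein-coding gene longer than 300 kb, outside all exons and more than 1 kb from every annotated transcription start site (TSS). Gene models were the basic set of GENCODE M21. Of 111722 peaks shared in this way, 9694 were members, and they came from 263679 peaks of replicate 1 and 148804 peaks of replicate 2. The long genes numbered 567 of 21938 protein-coding genes. A gene's length is that of its annotation record, which can reach beyond its basic transcripts, and a member could lie only within these. Such eligible intron made up a median of 96.0% of the gene body, but under 80% in 52 genes and under 50% in 17, and density is given on both scales where this matters. The annotation sets a sharp edge at 300 kb: Kcnq3, at 300.3 kb, is just inside it with 3.33 members per 100 kb, and Jazf1, at 299.8 kb, is just outside it with 6.34 shared intronic peaks per 100 kb.

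DNase-seq maps where the nuclease DNase I can reach DNA in chromatin. It was applied to hindbrain dissected from healthy embryos at day 14.5, of the inbred B6NCrl strain with males and females pooled. The series holds 1 group of 2 biological replicates, each a tissue sample with its own library, and no other tissue, stage or treatment, so no test between conditions could be made. Whole tissue mixes cell types, and a site open in few cells cannot be told apart from a site open weakly in many. The files hold no read counts, so depth is unknown. The tissue label was checked on promoters: a shared peak lay within 1 kb of a TSS of 12 of 12 hindbrain marker genes and 8 of 8 pan-neuronal genes, against 4 of 8 forebrain, 2 of 8 endothelial, 2 of 8 muscle and liver and 1 of 8 blood and microglial markers. Of all 21938 protein-coding genes, 64.6% had such a peak, so a single marker with one says little.

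Open sites away from promoters are often enhancers, silencers or binding sites of the insulator protein CTCF. Genes with very long introns are common among neuronal adhesion molecules, ion channels and receptors, and their introns can hold regulatory elements of the host gene or of a neighbour. A peak alone does not say which of these it is or which gene it acts on.

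The strongest members of 5 gene lists are shown first, because they score highest within their lists; they are not typical in base composition, at 52.7% to 66.0% GC against a median of 48.0% over all members. Strength is the mean of the percentile ranks of the authors' peak score in each library. Sequences are the plus strand of GRCm38 (mm10), 5′ to 3′, and capitals mark matches on either strand to any of 14 consensus motifs described further on. Maml3 encodes a Notch coactivator, Pde4d a cAMP phosphodiesterase, Slit3 an axon guidance ligand, Dscam an adhesion molecule of neurite self-avoidance, and Rbfox3 a neuronal splicing factor known as the NeuN antigen.
Maml3, chr3:51701536-51701685: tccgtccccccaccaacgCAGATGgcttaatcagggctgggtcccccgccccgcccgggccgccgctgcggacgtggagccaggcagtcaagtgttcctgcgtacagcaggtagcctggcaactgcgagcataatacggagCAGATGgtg
Pde4d, chr13:109822476-109822625: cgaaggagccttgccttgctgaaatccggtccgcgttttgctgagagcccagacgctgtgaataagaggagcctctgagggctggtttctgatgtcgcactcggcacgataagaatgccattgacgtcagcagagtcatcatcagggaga
Slit3, chr11:35407736-35407885: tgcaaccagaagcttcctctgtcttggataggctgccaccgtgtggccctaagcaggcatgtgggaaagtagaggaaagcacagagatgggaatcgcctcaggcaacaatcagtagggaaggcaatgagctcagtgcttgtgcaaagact
Dscam, chr16:97165916-97166065: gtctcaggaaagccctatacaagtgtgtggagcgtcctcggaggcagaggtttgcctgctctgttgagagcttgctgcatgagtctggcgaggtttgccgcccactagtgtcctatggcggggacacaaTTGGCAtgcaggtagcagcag
Rbfox3, chr11:118738976-118739125: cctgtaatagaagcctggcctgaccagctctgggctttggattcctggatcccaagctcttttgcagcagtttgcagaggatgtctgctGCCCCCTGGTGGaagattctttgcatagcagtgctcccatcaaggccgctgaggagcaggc

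These 5 windows came from different parts of their genes. The Maml3 window scored 141 in replicate 1 and 100 in replicate 2, lay in intron 2 of 4 and had 66.0% GC. The Pde4d window scored 141 and 102, lay in intron 7 of 16 at 91.3% of the gene's length and had 54.7% GC. The window in Dscam scored 131 and 90 and lay 4.76 kb from the gene start, in intron 1. The Slit3 window scored 127 and 80 and lay near the middle of the gene, in intron 4. The capitals in the Rbfox3 window, which scored 116 and 86, mark a CTCF match. Neither the Slit3 nor the Pde4d window holds any of the motifs searched.

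The next windows are the strongest members that hold one of 4 motifs used below. The capitals mark the CTCF consensus in Pcca, a subunit gene of the mitochondrial propionyl-CoA carboxylase. They mark the homeodomain core TAATTA with the E-boxes CAGCTG and CAGATG in Palld, which encodes an actin-associated protein. In Ldb2, a LIM-domain cofactor gene, they mark the NFI single site TTGGCA with the same E-boxes, and in Nlgn1, which encodes a postsynaptic adhesion protein, the RFX palindrome.
Pcca, chr14:122876316-122876465: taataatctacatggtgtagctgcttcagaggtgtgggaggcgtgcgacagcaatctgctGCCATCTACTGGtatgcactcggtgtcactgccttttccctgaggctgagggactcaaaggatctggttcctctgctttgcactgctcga
Palld, chr8:61516196-61516345: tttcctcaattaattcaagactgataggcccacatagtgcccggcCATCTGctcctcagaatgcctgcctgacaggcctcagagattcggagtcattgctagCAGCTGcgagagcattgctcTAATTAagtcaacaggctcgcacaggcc
Ldb2, chr5:44538116-44538265: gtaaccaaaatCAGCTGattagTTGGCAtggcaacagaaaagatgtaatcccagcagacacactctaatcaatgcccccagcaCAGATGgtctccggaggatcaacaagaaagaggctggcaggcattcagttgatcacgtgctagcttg
Nlgn1, chr3:25807656-25807805: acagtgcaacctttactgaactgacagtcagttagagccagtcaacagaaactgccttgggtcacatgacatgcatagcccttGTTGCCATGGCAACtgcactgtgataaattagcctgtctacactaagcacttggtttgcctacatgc

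Nearly every long gene held a member. At least 1 member lay in 561 of 567 long genes (98.9%), against 36.9% of shorter protein-coding genes and 82.8% of genes of 50 to 300 kb with a shared intronic peak. A longer gene has more intron in which a peak can lie, so these shares are not matched for length. Per 100 kb of eligible intron, long genes had 3.26 shared peaks and shorter genes 4.23. The 6 genes without a member were Cdh18, a type II cadherin, B3galt1, a galactosyltransferase, Skint6, a Skint family gene, Gucy1a2, a guanylate cyclase subunit, and Gm45194 and Prr16. Eligible intron came to only 11.04 kb in B3galt1, 181.9 kb in Prr16 and 428.6 kb in Cdh18, so the lack of a member says little for B3galt1. Replicate 1 alone had 24 intronic peaks in Cdh18 and 9 in Prr16, and replicate 2 had none in either. In Skint6 neither library had a peak.

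Density varied far more between genes than presence did. The median gene had 14 members, or 2.66 per 100 kb of gene body, with quartiles of 1.43 and 4.45 and a range from 0 to 14.4. Of the 567 genes, 127 held 50% of all member-gene pairs, 68 genes were above 6 per 100 kb and 100 were below 1. In replicate 1 alone the median was 9.14 intronic peaks per 100 kb and in replicate 2 alone 3.59. Across the 567 genes the densities of the 2 libraries had a Spearman rho of 0.866 and a Pearson r of 0.854. Both libraries count the shared peaks, and the genes share GC and gene length, so this is a description of the ranking only.

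The densest gene was Msra, which encodes a repair enzyme for oxidised methionine. It held 48 members in 333.3 kb, or 14.4 per 100 kb (95% exact Poisson interval 10.6 to 19.1), out of 94 peaks in replicate 1 and 66 in replicate 2. Dscaml1, the paralogue of Dscam, followed with 40 members and 12.2 per 100 kb, and Rbfox3 with 48 and 11.4. Megf11, an EGF-domain membrane protein gene, had 11.1, and Msi2, a Musashi RNA-binding protein gene, had 10.8 per 100 kb. Intervals cover counting error only and overlap among these 5 genes, so their order is not resolved. Mad1l1, a spindle checkpoint gene, Ttc28, the nuclear coregulator gene Rere, the zinc finger gene Zfp536 and the Arf regulator gene Agap1 completed the first 10, between 9.48 and 10.2 per 100 kb. All 10 had a shared promoter peak, as did 92.9% of all long genes. Per 100 kb of eligible intron Msra, at 14.7, was followed by Auts2, a chromatin-linked gene of brain development, at 14.5 (9.45 to 21.2). Auts2 had 26 members in only 179.8 kb of eligible intron, 16.3% of its gene body. Over all 567 genes the median on this scale was 3.03, and the ranks on the 2 scales had a Spearman rho of 0.964.

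At the other end, the next lowest after the 6 empty genes had a single member each. Cntnap5c, a contactin-associated protein gene, had 1 member in 640.8 kb, and it lay at 0.24% of the gene's length from the start. Pcdh11x, an X-linked protocadherin gene, had 1 member in 620.4 kb, at 0.44%. The single members of Rarb, a retinoic acid receptor gene, and of Dnah7c, an axonemal dynein gene, lay at 87.1% and 40.6%. In Rarb 35.7% of the gene body was eligible, and its density per 100 kb of eligible intron was 0.722 (0.0183 to 4.02). Replicate 1 had 26 peaks in Cntnap5c introns and replicate 2 had 1, while Pcdh11x had 7 and 3. Cntnap5c, Pcdh11x and Rarb each had a shared promoter peak all the same, like 92.9% of all long genes.

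Grouped by function and not matched for GC, genes of transcription and chromatin factors were densest. The 43 such long genes held 1000 members, 4.63 per 100 kb of gene body pooled (4.35 to 4.92), against 2.98 over all long genes, and 31 of the 43 exceeded the overall median against 283 of 567 in all. Rere had 9.70, Zfp536 9.62 and Camta1, a calmodulin-binding transcription activator gene, 8.68 with 82 members. Not all were dense: Dach2, an X-linked dachshund-family gene, had 0.371 per 100 kb. The list was first per 100 kb of eligible intron as well, at 5.56 (5.22 to 5.91) against 3.26 over all long genes. The list was first in replicate 2 alone, at 6.26 per 100 kb, and second in replicate 1 alone, at 12.8, behind the 7 RNA-binding genes at 13.2. The factor genes also had a higher GC content, with a median of 42.6% against 40.7% for all long genes. Within the 189 long genes of lowest GC, 7 factor genes had a median of 2.45 against 1.30 for all. In the middle GC class 13 had 3.70 against 2.53, and in the highest 23 had 6.41 against 4.82. Pooled within classes, the list was first only in the middle one, at 3.79. In the lowest it had 2.22 and the fragile-site list 2.25. In the highest it had 5.90, and 4 lists of 2 or 3 genes each had more. These were RNA-binding (6.67), axon guidance (6.35), fragile-site (6.26) and cadherin and catenin genes (6.21), and synaptic and adhesion genes had 5.91.

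RNA-binding and splicing factor genes pooled 3.85 per 100 kb, and 2 of the 7 genes held 89 of the 208 members (42.8%). These 2, Rbfox3 and Msi2, were above 10 per 100 kb, while Rbfox1, the much longer splicing factor paralogue, had 37 members and 2.42 per 100 kb of gene body (3.52 per 100 kb of eligible intron), and Khdrbs2 had 1.03. Cytoskeleton and polarity genes pooled 3.13, and 21 of 34 exceeded the overall median. Ttc28 had 41 members in 410.0 kb, whereas Dmd, the dystrophin gene, and Sgcz, a sarcoglycan gene, had 0.53 each. Receptor kinase, phosphatase and signalling genes pooled 2.93, close to all long genes, led by Dock4, a Rac exchange factor gene, at 6.98 and Prkce, a protein kinase C gene, at 6.94.

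The gene classes most tied to synapses and wiring pooled below the overall density when GC content was not matched. Synaptic and immunoglobulin-family adhesion genes pooled 2.48 per 100 kb (2.31 to 2.66) over 36 genes, and 14 of them exceeded the overall median. Ion channel genes pooled 2.50, transmitter receptor and scaffold genes 2.57, axon guidance genes 2.76 and cadherin and catenin genes 2.23. Within GC classes their medians were not all low. From the lowest to the highest class axon guidance genes had 1.99, 2.64 and 5.63, against 1.30, 2.53 and 4.82 for all long genes. Synaptic and adhesion genes had 1.24, 3.35 and 5.68, and receptor and scaffold genes 1.83, 2.44 and 4.86. Ion channel genes had 1.68, 1.88 and 3.63, and cadherin and catenin genes 0.526, 2.03 and 7.11. Within these lists single genes stood high: Slit3 had 7.66, the GABA-B receptor gene Gabbr2 7.59, the scaffold gene Shank2 7.57, Cdh4 9.41 and the calcium channel subunit gene Cacna2d3 5.51 per 100 kb. The low ends were the Eph receptor gene Epha6 at 0.84, the muscarinic receptor gene Chrm3 at 0.824 and the potassium channel gene Kcnh8 at 0.266. All 17 guidance genes and all 30 receptor and scaffold genes had a shared promoter peak, as did 92.9% of all long genes.

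The remaining lists were the giant CUB and LDL-receptor genes, at 2.33 per 100 kb over 15 genes, the fragile-site genes and genes used mainly outside brain. The last had 2.23 per 100 kb over 16 genes, and 11 of the 16 had a shared promoter peak, against 92.9% of all long genes and 64.6% of all protein-coding genes. Cdh23, a stereocilia cadherin gene, had 7.87 per 100 kb, and Pcdh15, its partner in hair cell tip links, had 0.516. These were 8.41 and 0.989 per 100 kb of eligible intron. The fragile-site list pooled 3.06 with Immp2l and 2.68 without it, on either side of the 2.98 of all long genes. Per 100 kb of eligible intron it pooled 3.22 with Immp2l, against 3.26 over all long genes.

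**Figure D1:**
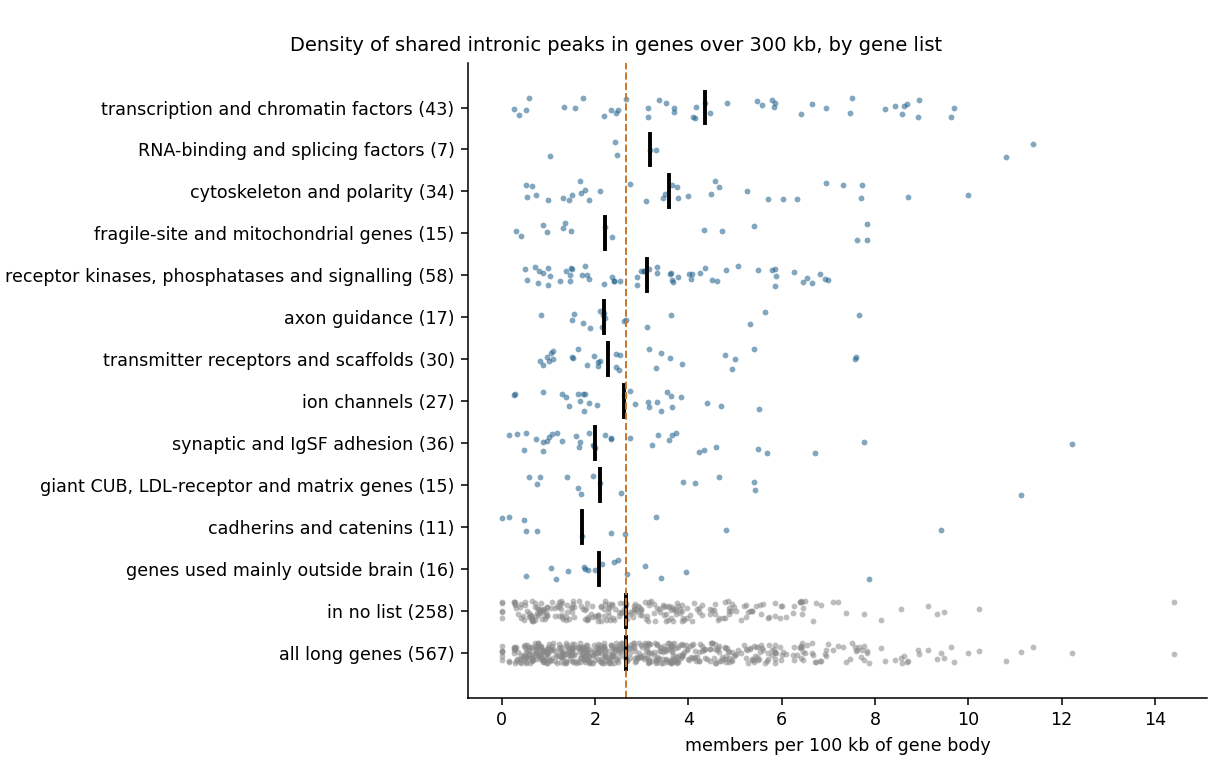
Members per 100 kb of gene body (x axis) in each long gene (points), by gene list (rows, number of genes in brackets), ordered by pooled density. Black bars are list medians and the dashed line is the median over all 567 genes (2.66); the transcription and chromatin list has the highest median (4.36) and every list spans a wide range.

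Some close paralogues differed severalfold, and for others the difference depended on how much of the gene was eligible. Per 100 kb of eligible intron Rbfox3 had 11.8 members (8.71 to 15.7) and Rbfox1 had 3.52 (2.48 to 4.85), and their intervals do not overlap. The nuclear factor I genes Nfia and Nfib had 7.51 and 3.37 per 100 kb of gene body, with overlapping intervals. Per 100 kb of eligible intron, which is 49.1% of Nfib, they had 7.86 (5.13 to 11.5) and 6.86 (3.75 to 11.52). On the same scale Dscaml1 had 12.8 and Dscam 8.04, with overlapping intervals. The forkhead genes Foxp2 and Foxp1 had 3.81 and 3.68, with overlapping intervals. Foxp2 had 46 peaks in replicate 1 and 28 in replicate 2, and Foxp1 had 98 and 33.

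Larger families held both dense and sparse genes. Per 100 kb of eligible intron the teneurin genes Tenm3, Tenm4 and Tenm2, for transsynaptic adhesion proteins, had 5.34, 4.86 and 4.30, with overlapping intervals, while X-linked Tenm1 had 0.414 and no shared promoter peak. Csmd2, Csmd1 and Csmd3, giant CUB and Sushi domain genes, had 4.28, 1.99 and 0.84, in the order of their GC content of 47.7%, 40.2% and 35.1%. Cntnap2 had 1.96, Cntnap5b 1.73, Cntnap5a 0.90 and Cntnap5c 0.158. The Robo receptor genes had 4.26 (Robo1) and 1.64 (Robo2) and the SOX genes 4.11 (Sox5) and 3.83 (Sox6), with overlapping intervals in each pair. By gene body Sox6 had 3.70 and Sox5 1.57, the other order, since 38.3% of Sox5 was eligible.

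Denser genes were richer in GC. GC and repeat content of a gene were measured over its eligible intron. Across the 567 genes member density per 100 kb of gene body had a Spearman rho of 0.718 with GC content and -0.678 with repeat content. In replicate 1 alone rho with GC was 0.728 and in replicate 2 alone 0.685, and gene length had -0.186. The median was 1.30 per 100 kb in the 189 genes of lowest GC, 2.53 in the middle class and 4.82 in the highest. These are descriptions over genes, which share libraries and sequence composition. How far cutting, amplification or alignment depend on GC in these libraries was not tested. With density per 100 kb of eligible intron rho with GC was 0.738. Immp2l lay off the trend, with 7.84 per 100 kb of gene body at 38.6% GC.

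Long genes with a shared promoter peak held more members than those without. The 527 with one had a median of 2.76 per 100 kb and the 40 without had 1.59. Within the lowest GC class the medians were 1.41 over 173 genes and 0.661 over 16, and in the other classes together 3.65 over 354 and 2.67 over 24. Myo3b, a myosin gene, was the densest of the cytoskeleton list after Ttc28, at 8.72, although no shared peak lay at its TSS. Genes on the X chromosome were sparse: 26 had a median of 0.719 per 100 kb and 541 on autosomes had 2.83. The X genes had lower GC, with a median of 37.7% against 40.8%. Within the lowest GC class 20 X genes had 0.52 and 169 autosomal genes 1.49. Sexes were pooled, so X copy number per cell differs from that of autosomes, and its part was not tested. Mid1, a midline ubiquitin ligase gene, was the densest on the X at 6.24. However, 7 of its members lay within 1570 bp, with scores of 13 to 87 in replicate 1 and 11 to 41 in replicate 2. Repeat-masked bases made up 29.0% of these windows on average.

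**Figure D2:**
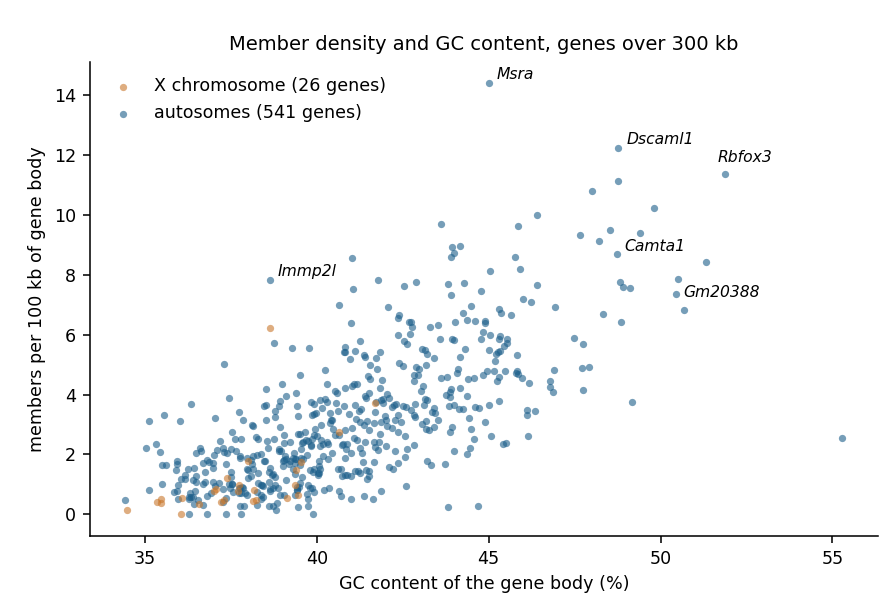
Members per 100 kb of gene body (y axis) against GC content in percent (x axis) for each of 567 long genes, with X-linked genes in orange and autosomal genes in blue. GC content was measured over eligible intron, although the axis is labelled gene body. Density is higher in GC-rich genes, X-linked genes sit low, and Immp2l lies above the trend.

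Compared with shorter genes, long genes held fewer shared peaks per length of intron. The same was true of replicate 2 alone and hardly of replicate 1 alone. Eligible intron is the sequence where a member could lie by its position. Pooled density per 100 kb of eligible intron was 3.26 in long genes and 4.23 in shorter ones, a ratio of 0.77. In replicate 2 alone it was 4.30 and 5.61, and in replicate 1 alone 10.4 and 10.5, a ratio of 0.99. By length, density was 3.80 in genes of 300 to 500 kb, 3.04 in genes of 500 to 1000 kb and 2.71 beyond, against 4.54 in genes of 200 to 300 kb and 4.05 up to 50 kb. GC of the sequence was 41.5%, 40.3% and 39.7% in the 3 long classes, against 42.4% and 44.2% in those 2 shorter ones.

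Replicate 1 peaks in long genes were found again less often. Of 30907 replicate 1 peaks placed like members, 31.4% (95% Wilson interval 30.9 to 31.9) overlapped a replicate 2 peak, against 40.3% (39.96 to 40.7) in introns of shorter genes and 42.4% of all replicate 1 peaks. The gap was present at matched scores: in the sixth of 10 score classes 27.8% were shared in long genes and 37.1% in shorter genes. In the highest class the shares were 98.7% and 98.4%. Seen from replicate 2, 78.5% of 12806 peaks in long genes overlapped a replicate 1 peak, against 77.7% in shorter genes and 77.1% of all. The libraries differ in the number of peaks called, and the part of depth in these shares was not tested.

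Members were otherwise of ordinary strength. Their median score was 67 in replicate 1 (quartiles 52 and 83.8) and 30 in replicate 2 (23 and 41), against 68 and 32 in introns of shorter genes. The scores of the 2 libraries had a Spearman rho of 0.764 over members, which share a window. Every member lay in a replicate 1 hotspot, a wider region of enriched cutting, and 98.6% lay in a replicate 2 hotspot. The hotspot carried the top value of 100 on the authors' −log10 q-value scale for 66.9% of members in replicate 1 and 24.3% in replicate 2. Members were picked as peaks found in both libraries. These hotspot shares were not measured for other shared peaks, so they do not set members apart.

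Along the gene, members were spread almost evenly, apart from the first kilobases. With the gene body split into 10 equal bins, density per 100 kb of eligible intron was 3.31 in bin 1, between 3.05 and 3.16 from bin 2 to bin 7, and then 3.42, 3.50 and 3.82 in the last 3 bins. Genes of 50 to 300 kb had 5.72 in bin 1 and 4.60 in bin 10. Between 1 and 5 kb from the gene start, density in long genes was 16.2 (14.4 to 18.2), from 287 members in 172 genes. It was 2.86 between 5 and 10 kb, 2.18 (1.86 to 2.54) between 10 and 25 kb and 3.23 between 50 and 100 kb. Each library alone had this pattern, with 37.9 per 100 kb at 1 to 5 kb and 8.08 at 10 to 25 kb in replicate 1, and 23.3 and 2.89 in replicate 2. Without members within 1 kb of a TSS of the comprehensive annotation, 245 members and 13.8 per 100 kb remained at 1 to 5 kb.

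Toward the gene end density was higher over a longer range. It was 4.72 between 5 and 10 kb from the end, 3.95 between 25 and 50 kb and 2.92 beyond 300 kb. The longest genes give most sequence to the last of these, and longer genes were sparser. Gene length and position cannot be told apart there. Bin 10 had 3.73 and bin 6 had 3.001 without the 8 long genes that hold at least 5 other protein-coding genes. Intron 1 held 23.3% (22.5 to 24.2) of member-gene pairs and 21.9% of the eligible sequence. Without the same 8 genes the shares were 20.996% and 20.7%, so no excess in intron 1 remained beyond the counting interval.

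**Figure D3:**
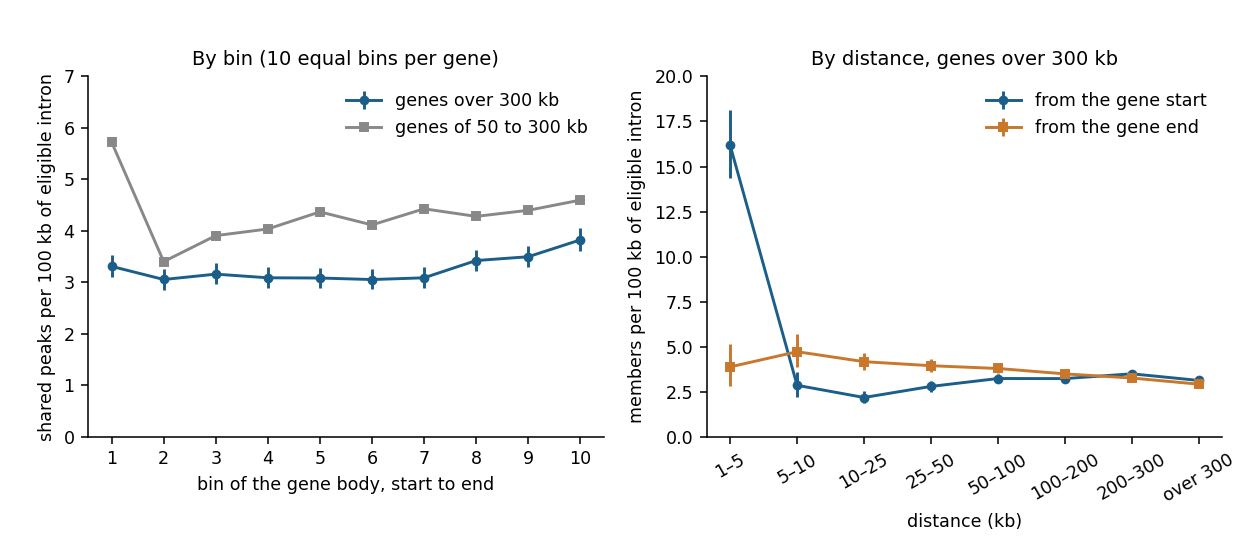
Left, shared peaks per 100 kb of eligible intron (y axis) in each of 10 equal bins of the gene body (x axis) for genes over 300 kb and genes of 50 to 300 kb; right, the same density for members by distance in kb from the gene start or end. Bars on the long-gene points are 95% exact Poisson intervals; density is 16.2 at 1 to 5 kb from the start and between 2.18 and 3.50 farther in.

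Single genes could be far from even. Of 342 genes with at least 10 members and 40% to 60% of their eligible intron in the first 50% of the gene, 23 had 25% or less of their members there and 22 had 75% or more. Cntnap2 had 16.7% of its 42 members in the first 50% of the gene, which held 49.1% of its eligible intron, and its median member lay at 92.4% of its length. A member-free stretch of Cntnap2 spanned 532.7 kb, 502.6 kb of it eligible. Zbtb20, a zinc finger gene of brain development, had 15.6% of its 32 members in the first 50%.

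In other genes little or none of the first 50% was eligible. Ptprd, a receptor tyrosine phosphatase gene of synapse formation, had 16 members, all beyond the first 1705 kb of its 2271 kb, but that stretch held only 86.6 kb of eligible intron. Its density was 2.54 per 100 kb of eligible intron. Dab1, the Reelin adaptor gene, had all of its 19 members in the last 50% of the gene, where all of its eligible intron lay, and 5.15 per 100 kb of it. Auts2 had 23 of its 26 members more than 900 kb from its start, 21 of them in one window of 100 kb, and 10.3% of its eligible intron lay in the first 50% of the gene.

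The opposite pattern occurred as well. Grid1, a glutamate delta receptor gene, had 84.6% of its 26 members in the first 50% of the gene, with 50.5% of its eligible intron, and Nrxn3, a presynaptic adhesion gene, had 68.6% of 70 members with 47.7%. In the 56 genes over 1000 kb that do not hold 5 or more others, 43.7% of 1495 members lay in the first 50% of the gene, which had 47.3% of the eligible sequence. Lrp1b, an LDL-receptor family gene, had 12 members in 2058 kb, and its peaks differed between libraries, with 99 in replicate 1 and 11 in replicate 2. Dmd had 12 members in 2257 kb, with 68 and 16 peaks. Lsamp, Macrod2 and Dlg2, each around 2 Mb, had 43, 44 and 39 members.

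**Figure D4:**
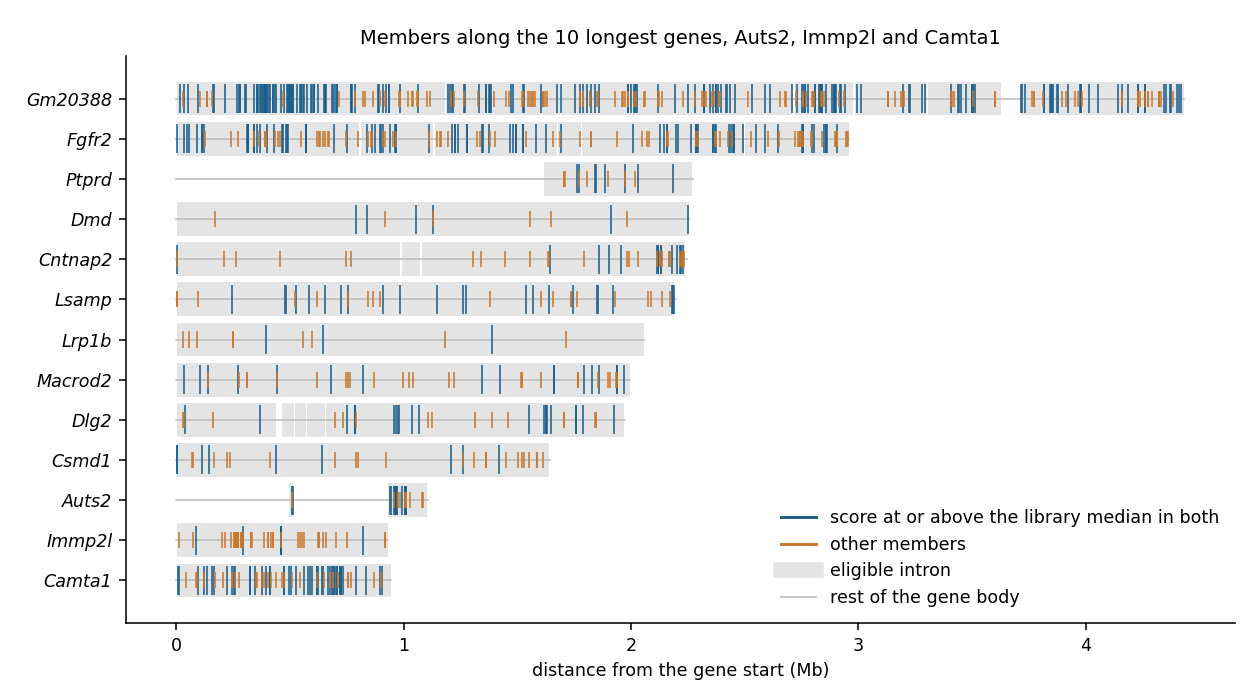
Members (ticks) by distance from the gene start in Mb (x axis) along the 10 longest genes, Auts2, Immp2l and Camta1 (rows); blue ticks score at or above the library median in both replicates, short orange ticks are the rest. Shading marks eligible intron, with gaps under 5 kb joined, and the thin line the rest of the gene body; Ptprd and Auts2 have shading over only 27.8% and 16.3% of their length, and the members of Cntnap2 crowd toward its end.

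The longest gene models need care. Gm20388, a locus of 4435 kb on chromosome 8 that contains 71 other protein-coding genes, had 327 members, and Fgfr2, a fibroblast growth factor receptor gene annotated over 2961 kb with 29 others inside, had 169. Members there are intronic by annotation but may lie between the genes inside. In all, 8 long genes held at least 5 others, with 565 member-gene pairs, and 438 members (4.52%) lay in the body of more than 1 protein-coding gene. Without the 8 genes, density was 3.16 per 100 kb of eligible intron and the ratio to shorter genes 0.746. Immp2l, a mitochondrial peptidase gene, had 73 members, but 43 of them lay in one window of 100 kb with median scores of 10 and 7. Only 7 of the 73 had scores at or above the library medians of 47 and 30 in both replicates. Outside that window Immp2l had 3.61 per 100 kb.

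Most members stood alone. Joined when less than 1 kb apart, the members formed 8177 runs, of which 7015 were single and 1162 held the other 2679 members (27.6%). The median spacing between neighbours in a gene was 13.1 kb, with quartiles of 3.28 and 33.9 kb. The largest run, 17 members in 7990 bp of Immp2l, had scores of 6 to 21 in replicate 1 and 3 to 12 in replicate 2. The next, 8 members in 3950 bp of Zbtb20 had scores of 44 to 112 and 25 to 73. After Immp2l the densest windows of 100 kb were in Gm20388 and Dscaml1 with 23 members each, Iqsec1, an Arf exchange factor gene, with 22, and Auts2 with 21. A member-free stretch with over 200 kb of eligible intron occurred in 120 genes, among them 66 of the 155 genes over 600 kb. The longest held 703.5 kb of eligible intron, in Tenm1, followed by 663.4 kb in the X-linked gene Il1rapl2, which encodes an interleukin receptor accessory protein-like protein.

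The strongest members were rich in GC. The 10 with the highest ranks lay in Gm20388 (2 of them), Msra, Gm42416, Nol4, Pde4d, Kcnn2, Macf1, Maml3 and Palld, with scores of 135 to 145 in replicate 1 and 98 to 122 in replicate 2. Their GC content ran between 52.0% and 78.7%, against a median of 48.0% over all members. Of these 10, 4 lay within 1 kb of a TSS of the comprehensive annotation, which the basic set omits, as did 7.42% of the top 10% and 3.14% of all members. The highest outside Gm20388, in Msra, scored 140 and 116 and lay 15.3 kb from the gene start in intron 6.

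In sequence, members were poorer in GC and repeats than other shared distal peaks. Median GC was 48.0% in members, against 50.7% in introns of shorter genes and 49.3% between genes. Repeat-masked bases made up 7.09% of member sequence, against 9.08% and 8.61%. A CpG was absent from 15.1% of members and 12.5% of windows in shorter genes.

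The CTCF motif was the one that differed most, in percentage points, from other shared peaks. A match lay in 732 members, 7.55% (7.04 to 8.09), against 12.9% (12.5 to 13.4) in introns of shorter genes, 12.1% between genes and 11.7% of all 70417 shared distal windows. The gap was present at matched GC: in the low, middle and high GC classes of members the shares were 7.65%, 7.44% and 7.55%, against 14.5%, 12.8% and 12.3% in shorter genes. Each library alone had it, with 3.38% against 7.01% in replicate 1 and 6.15% against 10.4% in replicate 2. Among windows with no repeat-masked base the shares were 6.12% and 10.5%.

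Members with a CTCF match were strong, like the Pcca window printed above, which scored 129 and 94. Their median scores were 77 and 50, against 66 and 29 for other members, and 22.8% of the top 10% of members had a match against 2.86% of the bottom 10%. By mean score rank, members had 2.96% below rank 40 and 25.7% above rank 90, and shorter genes had 7.93% and 25.9%. The shares were thus close in the highest ranks and apart in the lower ones. Members in transcription and chromatin factor genes had a match in 4.70% (3.55 to 6.19) of 1000, against 12.3% (9.26 to 16.1) of 359 in ion channel genes, the highest of the 12 lists. The lowest lists were axon guidance genes, with 3.23% (1.64 to 6.24) of 248, and fragile-site genes, with 3.62% (2.17 to 5.98) of 387, and both intervals overlap that of the factor genes.

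**Figure D5:**
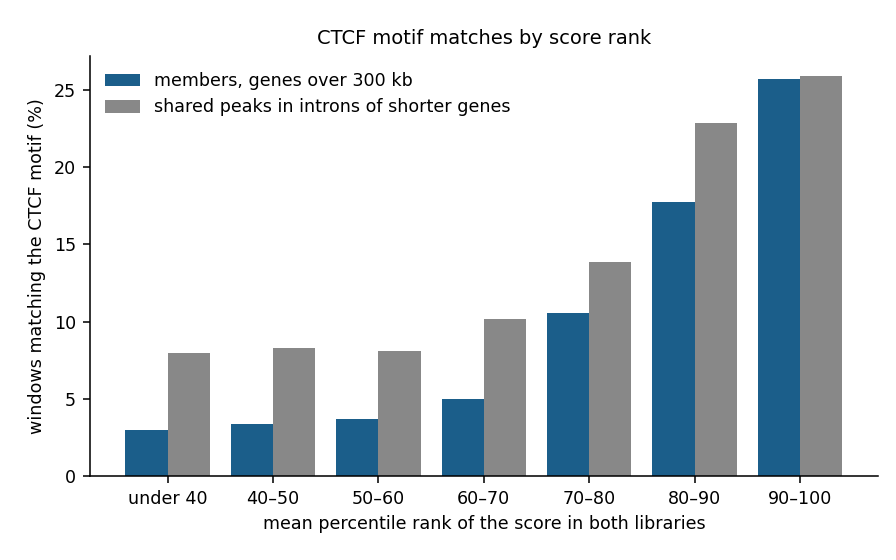
Share of 150 bp windows with a CTCF match in percent (y axis) by the mean percentile rank of the score in both libraries (x axis), for members (blue) and shared peaks in introns of shorter genes (grey). The shares are 2.96% and 7.93% in the lowest class and 25.7% and 25.9% in the highest.

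The homeodomain core TAATTA went the other way, in 8.95% of members against 5.79% in shorter genes, 7.38% between genes and 7.03% of all shared distal windows. At matched GC members were higher than shorter genes in each class, by an amount that varied. Within the low GC class the shares were 16.5% and 12.8%, in the middle class 6.66% and 6.18%, and in the high class 3.34% and 2.28%. Between genes the shares by class were 13.9%, 6.78% and 2.88%, so members were not higher than these in the middle class. TAATTA was commoner in weak members, with 4.43% of the top 10% and 12.2% of the bottom 10% of members, a contrast not matched for GC. The single NFI site TTGGCA, bound by nuclear factor I proteins, lay in 18.3% of members, 16.1% in shorter genes and 16.3% of all. The E-box CAGATG, bound by proneural factors, lay in 19.1%, against 17.6% in shorter genes and 17.8% of all. CAGCTG lay in 16.2%, against 17.0% and 16.5%. These shares over all windows are not matched for GC. By GC class, from low to high, TTGGCA lay in 16.9%, 19.4% and 18.6% of members. The shares were 14.6%, 17.0% and 16.2% in shorter genes and 14.8%, 16.8% and 16.2% between genes. In the low, middle and high GC classes CAGCTG lay in 10.57%, 15.13% and 22.94% of members. In shorter genes it lay in 9.14%, 14.97% and 21.93%. Members were thus slightly higher in each class, the reverse of the unmatched order. The POU octamer ATGCAAAT lay in 2.10%, against 1.47% and 1.83%, and the SOX core ACAATG in 9.67%, against 8.44% and 8.83%. These are not matched for GC either. In the middle GC class the SOX core lay in 9.76% of members and 9.78% in shorter genes. The shares were 11.49% and 11.20% in the low class, and 7.68% and 6.37% in the high class. The RFX palindrome, shown in Nlgn1, lay in 19 members, 0.196%, against 0.209% of all shared distal windows. The ETS site CCGGAAGT lay in 7 members, 0.0722% (0.0350 to 0.149). It lay in 0.177% (0.132 to 0.237) in shorter genes and 0.243% (0.197 to 0.299) between genes, not matched for GC. Both strands were searched, matches to different motifs can overlap, and a match does not say that a factor was bound.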

How the data were processed

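The authors deposited peaks and hotspots for each replicate, called on its own filtered mm10 alignments according to its readme. The deposited peaks carry a score, a whole number up to 150 whose scaling is not stated, and the deposited hotspots a −log10 q-value whose top value is 100. Aligner and peak caller: not given in the sources used here. Depth is unknown. Peaks off the main chromosomes were left out (253 and 303). Positions were compared with GENCODE M21 (basic) and GRCm38.p6 using Python 3.11.15, pandas 2.3.3, SciPy 1.17.1 and pysam 0.24.0, and the membership code was tested on simulated data. Intron numbers are those of the longest transcript. Densities have exact Poisson and shares Wilson 95% intervals, which cover counting error only; members and genes are not replicates, and no test was run. Members, the 12 gene lists (497 of 498 names found, 309 over 300 kb) and motifs were chosen with earlier results of these data known. Named genes are the densest, sparsest and longest, the extremes of each list, the genes of the strongest members, densest windows and longest empty stretches, and paralogues, with other genes of the lists; Mid1 was named after its values were seen. Some genes that this rule picks are not reported here.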

Additional observations from a re-analysis of the deposited data

How the results depend on the processing

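No paired analysis was possible because the series has 1 group. The ratio of density in long genes to that in shorter genes stayed below 1 under every alternative, and the cause of each move was not tested. The order of the gene lists did move: 4 of 12 lists were above all long genes, and 3 with an overlap of 75 bp, scores at or above the median, limits of 200 kb or 500 kb, shared hotspots, replicate 2 positions, or density per 100 kb of eligible intron, the last chosen after seeing the data. The fragile-site list fell below all long genes in 8 of 12 settings, for example at 1.14 against 1.48 per 100 kb with scores at or above the median, and the RNA-binding list passed the transcription list in replicate 1 alone. Using only peaks at or above the median score in both libraries left 4811 members, 93.8% of long genes with a member, 9.89% of members in the first 10% of the gene, 24.2% in the first intron, 12.1% with a CTCF match, and a shared share of replicate 1 peaks of 33.6%. With a limit of 200 kb these were 97.8% of genes, 9.86% in the first 10% of the gene, 23.3% in the first intron and a shared share of 32.9%; with 500 kb there were 5196 members, 23.7% in the first intron and a shared share of 29.6%. Beyond 5 kb from every TSS the first 10% of the gene held 6.44%, the first intron 19.8% and the shared share was 30.7%. An overlap of 75 bp gave 23.2% in the first intron and a shared share of 27.8%. Shared hotspots gave 8.78% and 22.3% in the first 10% of the gene and first intron, and runs counted once 8.98% and 22.5%. The first intron held 23.0% at replicate 2 positions and 23.5% with protein-coding transcripts only. The main shares, over members, were 9.40% and 23.1%. Also after seeing the data, 2 more alternatives were added: without long genes that hold 5 or more others the first intron held 20.9%, and without peaks within 1 kb of a TSS of the comprehensive annotation 22.9%. With each library alone, members ranged from 12806 to 30907, density per 100 kb of eligible intron from 4.30 to 10.4, its ratio to shorter genes from 0.768 to 0.990, genes with a member from 98.9% to 99.8%, the first 10% of the gene from 9.34% to 9.93%, the first intron from 22.8% to 22.9%, CTCF matches from 3.38% to 6.15%, and lists above the pooled density from 4 to 5. With fewer peaks in replicate 2, membership is limited by that library.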
